A study of Homo sapiens with 26 samples.

Results

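The genes described here are 35 components of the endoplasmic reticulum (ER) folding and secretion machinery and of the unfolded protein response (UPR), taken by symbol from tables of 26485 gene symbols. They were kept where the mean normalised value was at least 10 in each of 5 expression tables, and 34 of the 35 met this. MANF, a secreted ER stress factor, did not, because its mean was 2.98 in the TE6 table although it was 842 to 1474 in the other 4 tables. The 34 genes comprise lumenal chaperones, J-domain cochaperones, lectin chaperones, disulfide isomerases and an oxidase, ER-associated degradation (ERAD) components, stress sensors and transcription factors, translocation and signal-peptide processing components, and 2 COPII coat subunits. Transcript values were compared within each table between cells in which the level of BRDT or TP63 had been changed and their controls, in 6 comparisons.

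RNA-seq covered 26 libraries in 11 groups from 3 established human esophageal squamous cell carcinoma (ESCC) lines, KYSE180, TE6 and KYSE150. BRDT is a bromodomain protein normally made in germ cells, and TP63 encodes p63, a transcription factor of squamous epithelium. KYSE180 cells received a control small interfering RNA (siCont, n = 3) or one against BRDT (siBRDT, n = 3), and, in a separate experiment, siCont (n = 2) or an siRNA against TP63 (siTP63, n = 2). TE6 cells received siCont, siBRDT or siTP63 (n = 2 each), so that both TE6 comparisons share the same 2 control libraries. KYSE150 cells, which were grown with less serum than the other lines, received siCont or siTP63 (n = 2 each). Knockdown cells were collected 48 h after lipid transfection. In a further KYSE150 experiment, cells electroporated with a BRDT expression plasmid (BRDT-OE, n = 3) were compared with cells given the control vector (n = 3). All libraries of a line come from that 1 line, and the sources used here do not say whether replicates were separate cultures, so that p-values measure the spread between these libraries, which may be technical.

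Proteins that enter the secretory pathway are threaded into the ER through the SEC61 channel, folded by lumenal chaperones such as BiP (HSPA5) and GRP94 (HSP90B1), joined by disulfide bonds through protein disulfide isomerases, and exported in COPII vesicles. When unfolded proteins accumulate, the sensors IRE1 (ERN1), PERK (EIF2AK3) and ATF6 signal to the nucleus, where the transcription factors XBP1, ATF6 and ATF4 raise chaperone, ERAD and stress-effector genes. Secretory cells carry a large machinery of this kind, and squamous carcinoma cells export adhesion and matrix proteins through it. The tables count reads per gene, and the spliced and unspliced forms of XBP1 were not separated.

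Promoters of the family are known for the ER stress response elements ERSE and ERSE-II and for the unfolded protein response element UPRE. These motifs were searched on both strands, as CCAAT and CCACG with 9 free bases between them (ERSE), ATTGG and CCACG with 1 free base between them (ERSE-II) and TGACGTGG (UPRE), in RefSeq promoter windows (build GRCh38.p14) running from 250 bases before to 50 bases after a gene start. Windows were found for 33 of the 35 genes, 44 windows in all, but not for PDIA3 or SEC24D. A gene was counted once if any of its windows held the motif, whereas the share given for all genes is one of single windows. The letters of ERSE lay in the windows of 8 of the 33 genes (24.2%), namely HSPA5, HSP90B1, CRELD2, CALR, CANX, PDIA6, ERO1B and XBP1, against 0.0769% of 35116 windows of all genes. ERSE-II lay in those of HERPUD1, HYOU1 and SDF2L1 (9.09% of the 33, against 0.0541% of all windows), and UPRE in those of DNAJC10, HYOU1 and SSR3 (9.09%, against 0.729%). In HYOU1 a UPRE and an ERSE-II overlap. The sites of 6 genes on which the results below turn are printed on the gene's strand, with capitals marking the motif, which reads forward or as its reverse complement. They are a description of letters, not evidence of binding.

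HSPA5, ERSE, chr9:125241386-125241414, minus strand: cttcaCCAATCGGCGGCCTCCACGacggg
XBP1, ERSE, chr22:28800598-28800626, minus strand: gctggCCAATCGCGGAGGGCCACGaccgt
CALR, ERSE, chr19:12938379-12938407, plus strand: ccacgCGTGGTCGACCATCATTGGtcggt
PDIA6, ERSE, chr2:10812848-10812876, minus strand: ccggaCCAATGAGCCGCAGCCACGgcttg
HERPUD1, ERSE-II, chr16:56932020-56932040, plus strand: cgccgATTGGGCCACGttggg
SDF2L1, ERSE-II, chr22:21642109-21642129, plus strand: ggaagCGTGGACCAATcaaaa

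Libraries held 7582089 to 19372441 reads. On the log2(value + 1) scale, BRDT was -2.75 (KYSE180) and -2.23 (TE6) with siBRDT and 10.60 with BRDT-OE, and TP63 was -1.70 (KYSE180) and -4.45 (TE6) with siTP63. These changes passed the test of limma, whereas TP63 in KYSE150 siTP63 did not (-2.34, adjusted p = 0.0818). TP63 was also lower with siBRDT, by -0.58 in KYSE180 and -1.15 in TE6. Each of 6 squamous markers had reads in every library, and their summed level was lower with both siRNAs, for example from 6898 to 7149 RPM (reads relative to the library total) in TE6 siCont to 1424 to 1545 RPM in TE6 siTP63. Markers of blood, endothelial and fibroblast cells summed to at most 13.4 RPM.

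In control cells the abundant members, as RPM divided by transcript length (RPM per kb), were chaperones. HSP90B1 stood at 375 ± 14.6 (SD, n = 3) in the KYSE150 vector control, followed by HSPA5 at 332 ± 23.3, P4HB at 261 ± 11.5 and CALR at 247 ± 15.8, of which the last 2 lie within 1 SD of each other. In KYSE180 siCont of the BRDT experiment CALR (809 ± 29.9, n = 3) and P4HB (807 ± 7.85) led and did not differ beyond their spread, and HSP90B1 followed at 462 ± 28.1. The sensor ERN1 was the scarcest in both, at 0.831 ± 0.372 and 0.949 ± 0.181 RPM per kb. All 34 members together took 1.25 to 1.30% of reads in KYSE180 siCont of the BRDT experiment and 0.967 to 0.988% in siBRDT. In TE6 they took 1.03% in both siCont libraries, 0.766 to 0.807% in siBRDT and 0.978 to 1.01% in siTP63. The share was 1.12% in both KYSE180 siCont libraries of the TP63 experiment and 1.25 to 1.27% in siTP63. On that scale of total reads the median of all genes was itself 0.53 higher in KYSE180 siTP63, and that of the members 0.54. In bulk RNA, fewer cells of a kind and less RNA per cell cannot be told apart.

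With BRDT knockdown in KYSE180, members of all 8 roles fell, and none rose past the threshold. A gene was called where limma's Benjamini-Hochberg adjusted p over all genes tested was under 0.05 and the log2 fold change was at least 0.5 in size. Of 34 members 13 fell, where 15.8% of 13589 genes were called lower, and 0 rose, where 14.5% of all genes were called higher. The median log2 fold change of the members was -0.37, against -0.01 over all genes, and 29 of the 34 lay below 0. At an unadjusted p under 0.05, 2 members were higher, and edgeR and DESeq2 also called 0 higher.

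The members that are disulfide isomerases or the oxidase were called lower in KYSE180 siBRDT, all 5 of 5. In the wider set described below, 5 of 12 other isomerases and oxidases were called lower and 0 higher, from -1.01 to 0.25. PDIA4, an isomerase of the BiP complex, had values of 4649, 4737 and 4435 in siCont and 1770, 1767 and 1592 in siBRDT. Its log2 fold change was -1.43 ± 0.06 (SE; adjusted p = 3.02e-10, limma). PDIA6, which also acts on the sensors IRE1 and PERK, went from 6358, 6157 and 5743 to 3062, 2958 and 2914 (-1.03 ± 0.06, adjusted p = 4.06e-09). For both genes every siBRDT library lay far below every control. PDIA3, the partner of calreticulin and calnexin, changed by -0.66, P4HB by -0.56, and ERO1B, the oxidase that recharges these enzymes, by -0.70.

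DNAJB9, a J-domain cochaperone of BiP that restrains IRE1, showed the lowest fold change of the 34. Its values were 138, 108 and 109 in siCont and 33.0, 33.6 and 20.9 in siBRDT, which is -2.01 ± 0.19 on the log2 scale (adjusted p = 6.36e-07). XBP1, the transcription factor activated by IRE1, went from 1089, 1067 and 1023 to 510, 483 and 469 (-1.12 ± 0.07, adjusted p = 6.55e-09). Neither gene's groups overlapped. EIF2AK3, the sensor PERK, changed by -0.81 ± 0.10, and SEC24D, a cargo-binding subunit of the COPII coat, by -1.13 ± 0.09, from 598, 643 and 718 to 295, 277 and 321. SEC61A1, the pore of the translocation channel, had values of 11855, 11787 and 11590 against 6656, 6622 and 6681 (-0.82 ± 0.06, adjusted p = 1.78e-08). EDEM1, which takes misfolded glycoproteins to degradation, changed by -0.73.

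Among the abundant chaperones, HSP90B1 fell from 15307, 14008 and 13503 to 9616, 8916 and 9000 (-0.64 ± 0.07, adjusted p = 1.16e-06). CALR, a lectin chaperone that binds calcium, went from 17653, 17349 and 16214 to 12650, 11741 and 11495, close to the fold limit (-0.51 ± 0.06, adjusted p = 7.96e-06). HSPA5 was lower in every siBRDT library (12322, 11938 and 10936 against 9898, 9726 and 9663), with an adjusted p of 0.00217, but its fold change of -0.26 was under the limit. HERPUD1, an ERAD scaffold, gave 613, 569 and 571 against 573, 522 and 534, and these groups overlapped. Of the 13 calls, 11 were also made by edgeR and DESeq2, with the libraries rescaled to equal upper quartiles or to equal totals, after removal of a trend on transcript length and GC content, and without each library in turn. CALR missed the fold limit in several of these, among them at -0.49 without siCont replicate 1 or siBRDT replicate 3, and P4HB missed it with equal totals (-0.47).

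**Figure D1:**
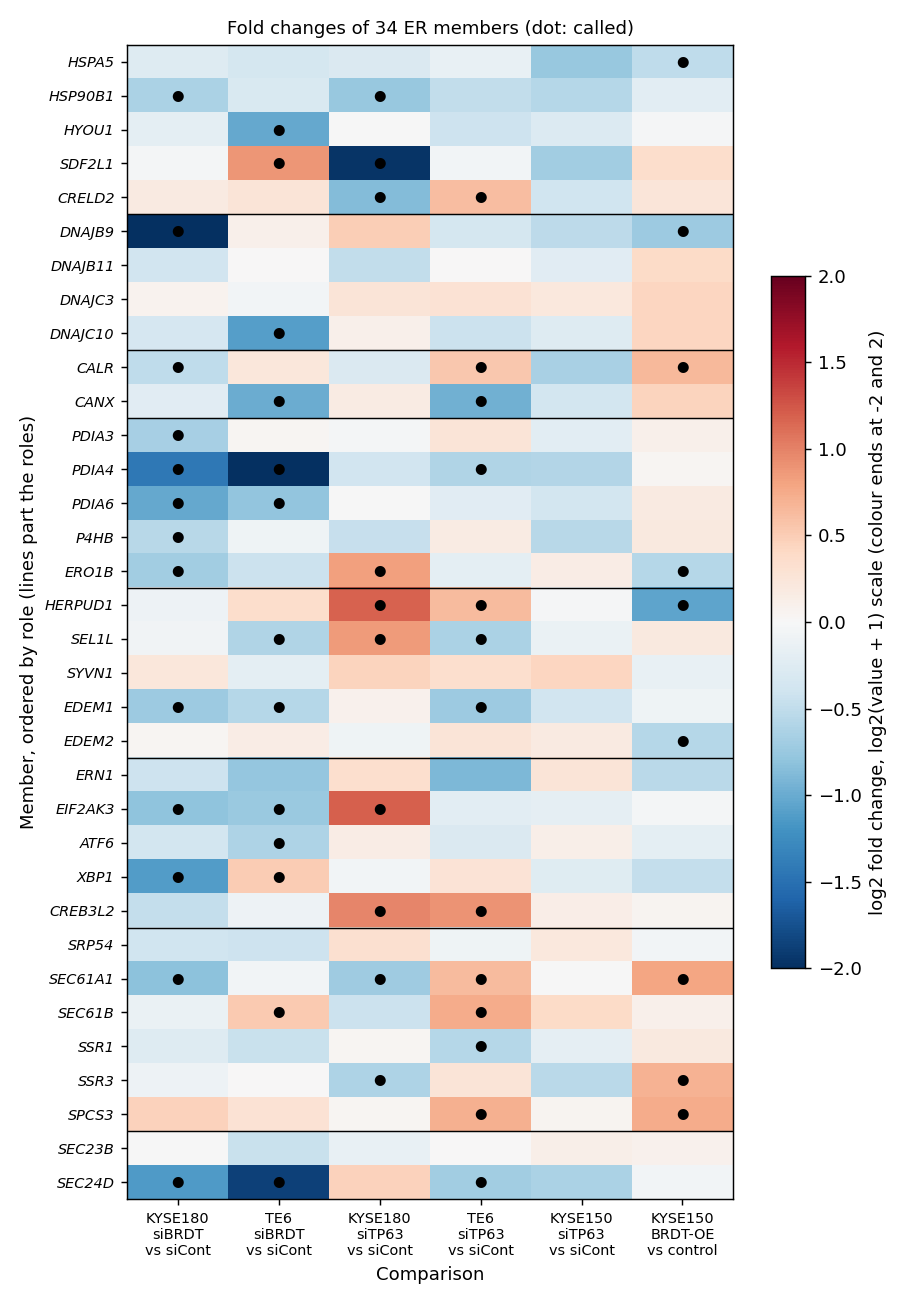
Log2 fold change of the 34 members (rows, grouped by role) in the 6 comparisons (columns), with colour running from blue (lower than control) to red (higher) and ending at -2 and 2, and a dot on each called member. The KYSE180 siBRDT column holds 13 dots, all on blue cells, the TE6 and KYSE180 siTP63 columns hold dots on both colours, and the KYSE150 siTP63 column holds none.

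With siBRDT in TE6, a COPII subunit, chaperones and disulfide isomerases fell, and a cochaperone, a channel subunit and XBP1 rose. Of 34 members 10 fell, where 18.1% of 13333 genes were called lower, and 3 rose, where 15.6% were called higher. The median was -0.25, against -0.04 over all genes. PDIA4 again showed the lowest value, going from 6542 and 6135 to 1064 and 1467 (-2.34 ± 0.13, adjusted p = 2.65e-07), and SEC24D went from 354 and 403 to 99.3 and 106 (-1.87 ± 0.15, adjusted p = 2.71e-06). DNAJC10, a reductase with a J domain, went from 971 and 1112 to 511 and 460 (-1.10 ± 0.12, adjusted p = 1.98e-05). Each of these stood clear of the controls in both siBRDT libraries.

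HYOU1, the nucleotide exchange factor of BiP, was 4023 and 3788 in siCont and 1580 and 2354 in siBRDT (-1.02 ± 0.15, adjusted p = 0.000161). CANX, the membrane-bound partner of calreticulin, was 10844 and 11962 against 6054 and 5414 (-0.99 ± 0.09, adjusted p = 1.01e-05). PDIA6 changed by -0.79, EIF2AK3 by -0.74, the sensor gene ATF6 by -0.62, SEL1L, the adaptor of the ERAD ligase, by -0.61, and EDEM1 by -0.57. The last 4 lost their calls with the length and GC trend removed (-0.43, -0.19, -0.15 and -0.23 in that order), and all 5 lost them with equal upper quartiles. EIF2AK3, SEL1L and EDEM1 also lost theirs without siCont replicate 2, and SEL1L without siBRDT replicate 2. HSPA5 (9986 and 9714 against 7189 and 8241) and HSP90B1 (18990 and 18674 against 14670 and 15826) were lower in both libraries by -0.36 and -0.31, under the fold limit.

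The 3 members that rose in TE6 siBRDT were SDF2L1, SEC61B and XBP1. SDF2L1, a cochaperone that cycles with BiP, was 725 and 644 against 1482 and 1064 (0.88 ± 0.14, adjusted p = 0.000392). XBP1 was 1383 and 1384 against 1808 and 2162 (0.51 ± 0.11, adjusted p = 0.00189), and SEC61B, a small channel subunit, was 876 and 943 against 1418 and 1207 (0.52 ± 0.11, adjusted p = 0.00228). These are short transcripts (825 bases for SDF2L1, 1791 for XBP1 and 564 for SEC61B), and with the length and GC trend removed none of the 3 was called (0.08, 0.26 and -0.0011 in that order). XBP1 also lost its call without siBRDT replicate 2 (0.39), and SEC61B without siCont replicate 1 (0.47) or siBRDT replicate 1 (0.41). PDIA4, SEC24D, DNAJC10, HYOU1 and CANX kept their calls under each alternative named for KYSE180. Equal upper quartiles moved the median of all genes up by 0.28 and left 5 members lower, with 588 of 13368 genes lower.

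Fold changes of siBRDT were set side by side in the 2 lines, which share no library. PDIA4, PDIA6, EDEM1, EIF2AK3 and SEC24D were called lower in both, 38.5% of the 13 in KYSE180 and 50% of the 10 in TE6. Over the 12612 genes tested in both lines, the shares were 39.8% and 32.7%. PDIA4 and SEC24D were called in both lines under each alternative run, whereas the TE6 calls of the other 3 depend on the scaling as given above. XBP1 was called in opposite directions, and its rise in TE6 was not called with equal totals or with the length and GC trend removed. The difference between the fold changes, KYSE180 minus TE6, was tested for each gene by a limma contrast at an adjusted p under 0.05. It was negative in 11 members, where 19.4% of 12612 genes were, and positive in 8, where 22.5% were. With equal upper quartiles 2 positive differences were called, those of PDIA4 (0.69) and HYOU1 (0.59). XBP1 differed by -1.63 ± 0.12 (adjusted p = 3.93e-08) and DNAJB9 by -2.11 ± 0.36 (adjusted p = 0.000191), since DNAJB9 was 36.0 and 60.3 in TE6 siCont and 57.2 and 44.2 in siBRDT, groups that overlapped. SEC61A1 (-0.76), CALR (-0.74) and PDIA3 (-0.70) were likewise lower in KYSE180 relative to TE6. PDIA4 (0.91 ± 0.15), HYOU1 (0.81 ± 0.16), CANX and DNAJC10 (0.77 each) and SEC24D (0.74 ± 0.16) were lower in TE6 relative to KYSE180.

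**Figure D2:**
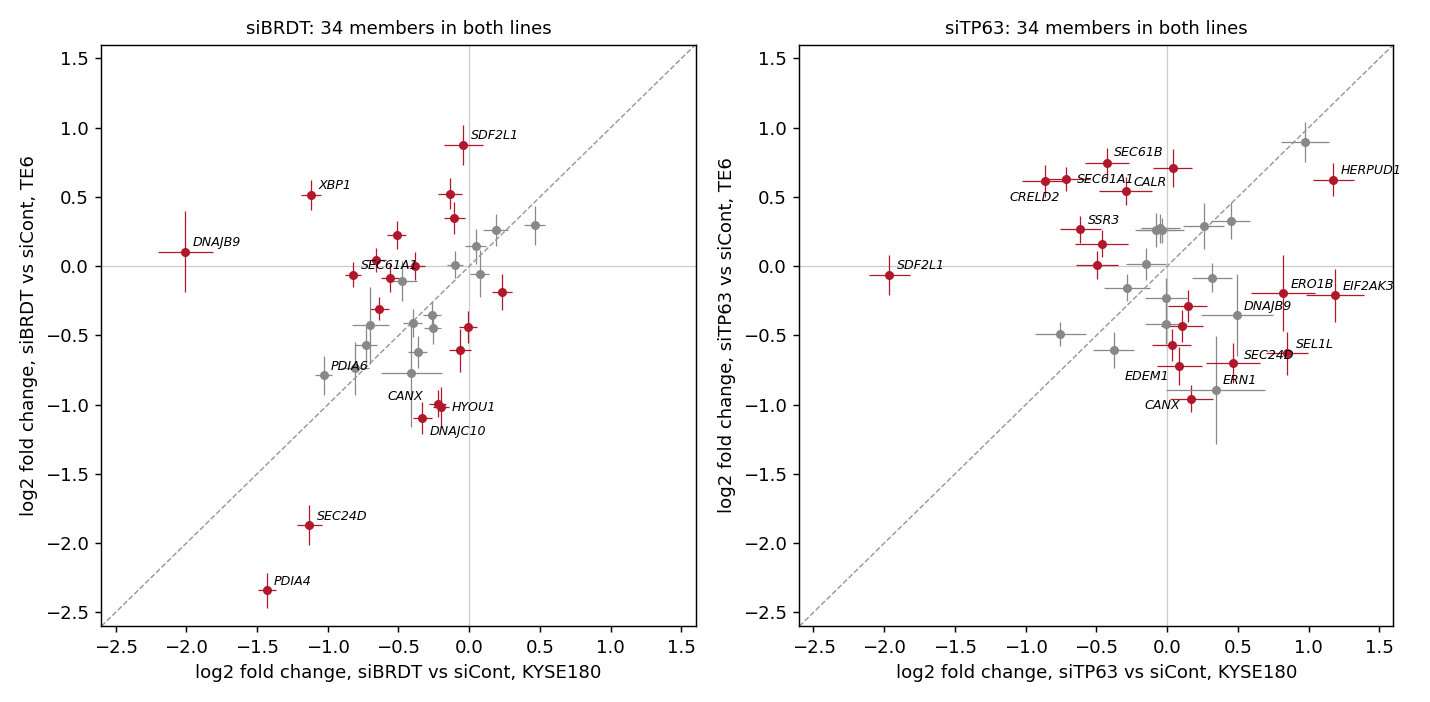
Log2 fold change in KYSE180 (x axis) against TE6 (y axis) for siBRDT (left) and siTP63 (right), with 1 point per member, bars of 1 SE and a dashed line of equality. Red marks members whose fold changes differed between the lines (adjusted p under 0.05), 19 with each siRNA. Over all genes, 22.5% differed positively and 19.4% negatively with siBRDT, and 26.2% and 28.8% with siTP63. PDIA4 and SEC24D lie far down on both axes with siBRDT, and XBP1 and DNAJB9 lie far to the left of the dashed line.

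With siTP63 in KYSE180, HERPUD1, EIF2AK3 and CREB3L2 rose and SDF2L1 fell. Of 34 members 5 rose, where 23.6% of 13924 genes were called higher, and 5 fell, where 25.7% were called lower. Members were thus called less often than all genes in both directions. Their median was 0.01, against 0.00 over all genes. By role, 2 of 5 ERAD genes and 2 of 5 sensors and factors rose, and 3 of 5 lumenal chaperones fell. Among these chaperones only SDF2L1 was called with equal totals, and the ERAD gene SEL1L was not called with the length and GC trend removed. In the wider set described below, 4 of 17 other ERAD and quality-control genes were called higher and 3 lower. Other lumenal chaperones and cochaperones were called lower in 4 of 16 and higher in 0. The wider stress transducers and effectors gave 5 higher and 4 lower of 15 tested. HERPUD1 was 500 and 617 in siCont and 1232 and 1280 in siTP63 (1.18 ± 0.15, adjusted p = 2.14e-07). EIF2AK3 was 78.6 and 80.1 against 153 and 218 (1.19 ± 0.21, adjusted p = 2.34e-05), and CREB3L2, a membrane-tethered factor that controls secretory genes, was 157 and 197 against 334 and 360 (0.97 ± 0.17, adjusted p = 2.53e-05). In these 3 genes both siTP63 libraries exceeded both controls. SEL1L rose by 0.85 and ERO1B by 0.82, of which ERO1B was not called without siTP63 replicate 2, and neither was called with the length and GC trend removed (0.47 and 0.49).

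SDF2L1 showed the lowest fold change in KYSE180 siTP63, from 1798 and 1522 to 454 and 394 (-1.96 ± 0.15, adjusted p = 5.72e-11). HSP90B1 was 30510 and 29428 against 19036 and 16551 (-0.76 ± 0.18, adjusted p = 0.000934). CRELD2, a secreted ER stress protein with isomerase activity, was 2268 and 1592 against 1221 and 896 (-0.86 ± 0.17, adjusted p = 9.49e-05). SEC61A1 (-0.72) and SSR3 (-0.61), a subunit of the translocon-associated complex, were the other 2. HSPA5 (-0.28), CALR (-0.29), DNAJB9 (0.49) and XBP1 (-0.05) were not called. Scaling to equal total reads moved the median of all genes up by 0.53 and gave 19 members higher and 1 lower, where 6781 of all genes were higher and 1451 lower. The median of the members was then 0.54, against 0.53 over all genes. Of the 5 falls, 3 were called with equal upper quartiles, and HSP90B1 (-0.23), CRELD2 (-0.34), SEC61A1 (-0.19) and SSR3 (-0.09) were not called with equal totals. SDF2L1, HERPUD1, EIF2AK3 and CREB3L2 kept their calls under each alternative run.

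In TE6 siTP63 the calls were again split, with 7 members higher, where 18.3% of 13333 genes were, and 6 lower, where 20.6% were. The median was -0.07, against -0.01 over all genes. CREB3L2 was 207 and 214 in siCont and 415 and 373 in siTP63 (0.90 ± 0.15, adjusted p = 0.000266), and HERPUD1 was 391 and 387 against 579 and 623 (0.63 ± 0.12, adjusted p = 0.000752). Among the 6 translocation and signal-peptide members 3 were called higher and 1 lower. The 3 were SEC61B (0.74), SPCS3, a subunit of signal peptidase (626 and 656 against 1029 and 1070, 0.71 ± 0.14), and SEC61A1 (5653 and 5504 against 8521 and 8721, 0.63 ± 0.09, adjusted p = 9.36e-05). In the wider set described below, 2 of 18 other translocon, signal recognition and signal peptidase genes were called higher and 1 lower. CRELD2 changed by 0.62 and CALR by 0.54. With the length and GC trend removed, SEC61B (0.44), CRELD2 (0.20) and CALR (0.29) were not called.

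CANX was lowest, from 10844 and 11962 to 5793 and 5948 (-0.96 ± 0.09, adjusted p = 5.88e-06). EDEM1 (-0.72), SEC24D (-0.70), SEL1L (-0.63), PDIA4 (-0.61) and SSR1 (-0.57), another subunit of the translocon-associated complex, also fell. HSP90B1 was 13485 and 13322 against the controls of 18990 and 18674, and its -0.49 (adjusted p = 0.000484) missed the fold limit. HSPA5 (-0.15), XBP1 (0.27) and DNAJB9 (-0.35) were not called. Calls of CALR (0.49) and SSR1 (-0.49) were lost without siCont replicate 2, and that of SEL1L without siCont replicate 2 or siTP63 replicate 1. With equal upper quartiles 2 of the 6 falls were called, CANX and PDIA4, and these kept their calls under each alternative run, as did the rises of HERPUD1, CREB3L2, SEC61A1 and SPCS3.

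HERPUD1 and CREB3L2 were thus called higher with siTP63 in both lines, 40% of the 5 in KYSE180 and 28.6% of the 7 in TE6, and no member was called lower in both. Over the 12780 genes tested in both lines, the shares called higher in both were 26.2% and 33.2%. CRELD2 and SEC61A1 were called lower in KYSE180 and higher in TE6, and SEL1L the reverse. With the length and GC trend removed, CRELD2 (-0.43 and 0.20) and SEL1L (0.47 and -0.21) were called in neither line. The KYSE180 call of SEC61A1 was lost with equal upper quartiles (-0.50) and equal totals (-0.19), and that of CRELD2 with equal totals (-0.34). The fold changes, KYSE180 minus TE6, differed negatively in 9 members, where 28.8% of 12780 genes did, and positively in 10, where 26.2% did. SDF2L1 differed by -1.90 ± 0.21 (adjusted p = 1.01e-06), CRELD2 by -1.48 ± 0.23, SEC61A1 by -1.34 ± 0.16 and SEC61B by -1.17 ± 0.20. SEL1L (1.47 ± 0.22) and EIF2AK3 (1.40 ± 0.29) were higher in KYSE180 relative to TE6. With equal totals 19 differences were positive and 4 negative, where 5893 of all genes were positive and 1861 negative. With the length and GC trend removed or without KYSE180 siTP63 replicate 2, 6 were positive.

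The 2 siRNAs were compared directly within TE6. The shared controls do not enter the difference itself, but they enter the estimate of the spread, which the 3 TE6 groups share. Relative to siBRDT, 9 members were higher in siTP63, where 14.1% of 13333 genes were, and 1 was lower, where 14.3% were. PDIA4 was 4063 and 4260 in siTP63 against 1064 and 1467 in siBRDT (1.73 ± 0.13, adjusted p = 1.41e-06), and SEC24D was 237 and 228 against 99.3 and 106 (1.17 ± 0.15). CREB3L2 (1.00), SEC61A1 (0.69), DNAJC10 (0.66) and HYOU1 (0.60) were also higher in siTP63, and SDF2L1 was lower (-0.94 ± 0.14, adjusted p = 0.000302). With equal upper quartiles, which moved the median of all genes by -0.20 here, 3 members were higher, and without siTP63 replicate 2 there were 5.

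**Figure D3:**
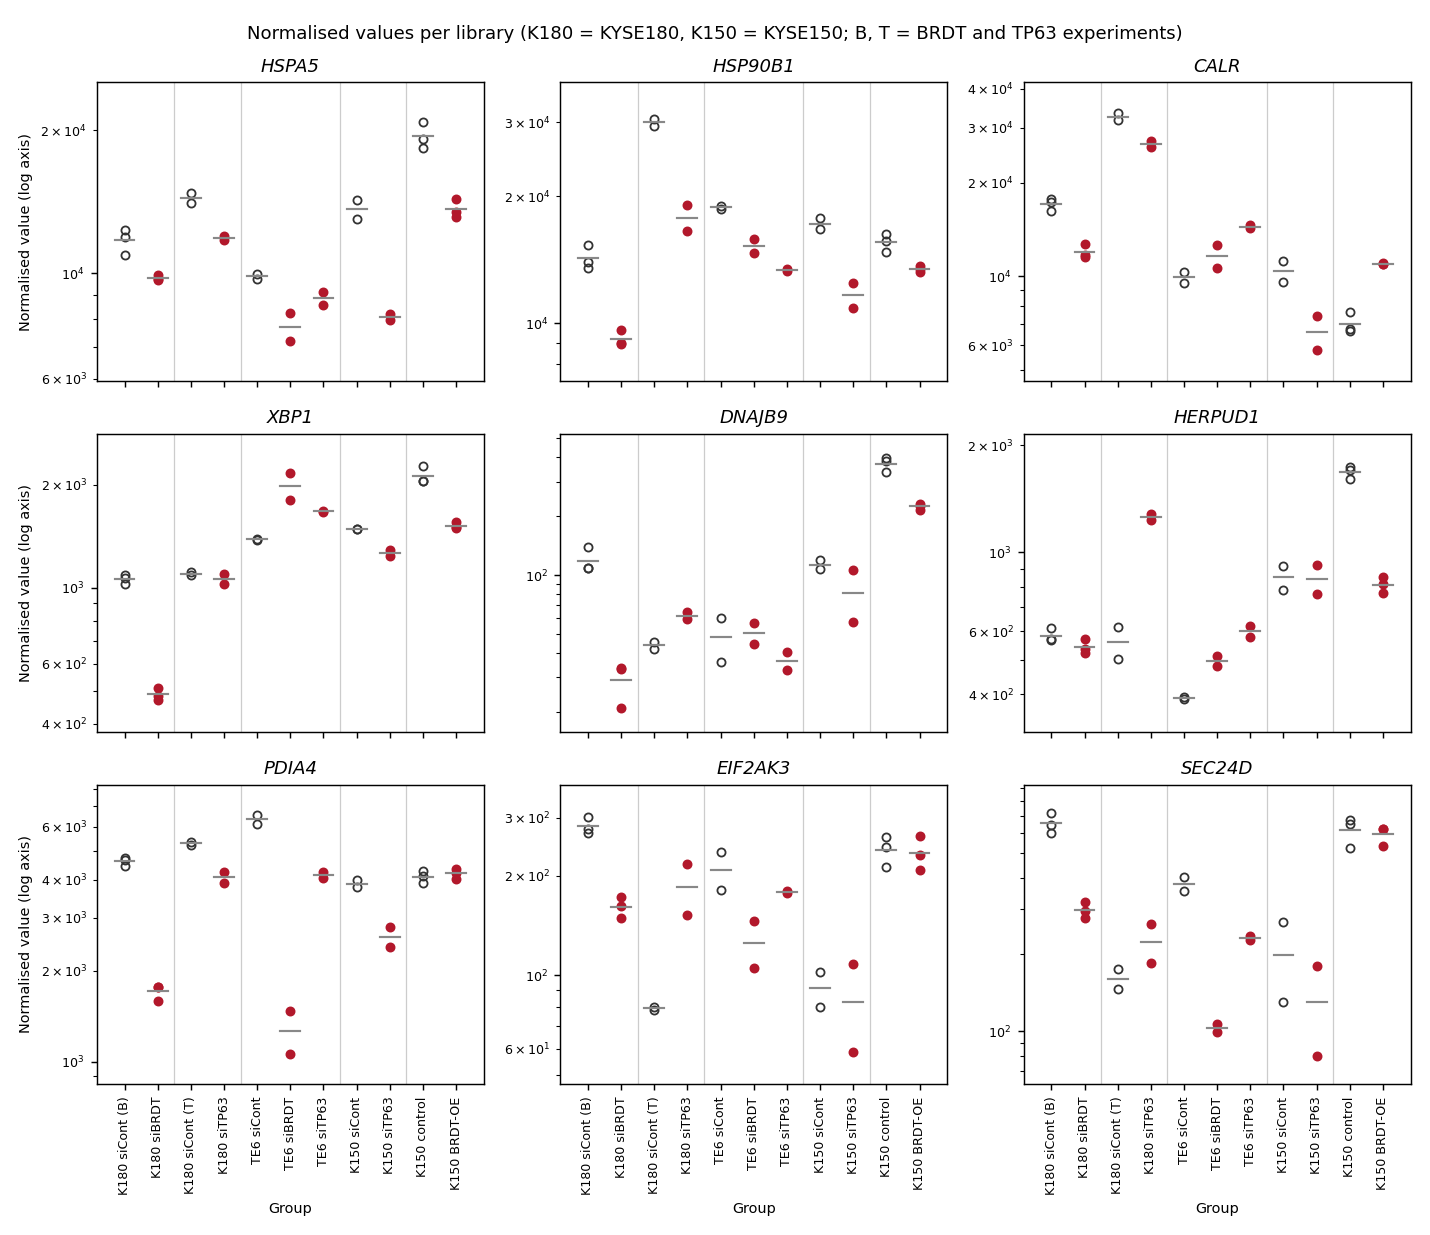
Normalised value per library (points, log axis) of 9 members in the 11 groups, with open points for controls, filled red points for knockdown or overexpression, a grey bar at the mean and grey lines between the 5 separately normalised tables. XBP1, DNAJB9, PDIA4, EIF2AK3 and SEC24D sit lower in KYSE180 siBRDT than in its controls, and HERPUD1 sits higher in KYSE180 siTP63 and lower in BRDT-OE.

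In KYSE150 siTP63 no member and no gene was called by limma (0% of 12335 higher, 0% lower), and the lowest adjusted p of a member was 0.211. edgeR called 0 members and 0 genes, and DESeq2 called 0 members, with 202 genes higher and 259 lower. At an unadjusted p under 0.05, 4 members were lower, where 9.12% of all genes were, and 0 were higher, where 8.67% were. HSPA5 was 14277 and 12977 in siCont and 8210 and 7968 in siTP63 (-0.75 ± 0.24, adjusted p = 0.211), and CALR was 11155 and 9562 against 5779 and 7464 (-0.65 ± 0.26, adjusted p = 0.277). Both genes were lower in each siTP63 library. SDF2L1 gave 2489 and 1538 against 798 and 1837, which overlapped (-0.69 ± 0.45), and HSP90B1 gave -0.57, DNAJB9 -0.53, XBP1 -0.23 and HERPUD1 -0.02. The highest values were those of SYVN1, the ERAD ligase (0.43), SEC61B (0.39) and ERN1 (0.26). Replicates of this experiment stood apart from each other. The deviations from group means of same-numbered libraries correlated at -0.70, so that each siCont library deviated with the siTP63 library of the other number. A block that pairs them so, chosen after seeing the data, called 9 members lower and 0 higher, with 1774 genes lower and 1626 higher, and the block on the numbers as labelled called 0 members, with 48 and 89 genes. Without any block, 4 members were called lower with the length and GC trend removed, among them CALR (-0.70, adjusted p = 0.0312), SDF2L1 (-0.72, adjusted p = 0.0326) and HSPA5 (-0.77, adjusted p = 0.0465). That setting, also chosen after seeing the data, called 505 genes higher and 736 lower of 11376.

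With BRDT overexpression in KYSE150, HERPUD1, DNAJB9 and HSPA5 fell, and CALR and 3 of 6 translocation and signal-peptide members rose. In the wider set described below, 1 of 18 other translocon, signal recognition and signal peptidase genes was called higher and 0 lower. Of 34 members 5 fell, where 16% of 12765 genes were called lower, and 4 rose, where 10.5% were called higher. The median was 0.07, against 0.02 over all genes. HERPUD1 was 1603, 1707 and 1736 in the control and 812, 851 and 768 in BRDT-OE (-1.05 ± 0.07, adjusted p = 4.84e-06). DNAJB9 was 396, 380 and 337 against 215, 231 and 226 (-0.72 ± 0.10, adjusted p = 0.000202), and HSPA5 was 18335, 20797 and 19193 against 13135, 14301 and 13443 (-0.51 ± 0.08, adjusted p = 0.00038). Every BRDT-OE library lay below every control for these 3 genes. EDEM2, a mannosidase-like ERAD gene, and ERO1B changed by -0.57 each. XBP1 was 2045, 2046 and 2267 against 1504, 1553 and 1492, and its -0.48 (adjusted p = 0.000297) lay just under the fold limit.

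The members that rose were SEC61A1, SPCS3, SSR3 and CALR. SEC61A1 was 4594, 4738 and 4799 in the control and 7936, 8330 and 8256 in BRDT-OE (0.79 ± 0.06, adjusted p = 9.95e-06). SPCS3 was 697, 667 and 718 against 1182, 1115 and 1169 (0.73 ± 0.07, adjusted p = 2.76e-05). CALR was 6745, 6671 and 7668 against 10914, 10921 and 11061 (0.64 ± 0.07, adjusted p = 7.38e-05), and SSR3 changed by 0.69 ± 0.09. The groups of all 4 were apart. HSP90B1 was lower by -0.21 and not called. The 4 rises and the falls of HERPUD1 and DNAJB9 held under each alternative run. The call of HSPA5 was lost without control replicate 2 (-0.46) or BRDT-OE replicate 1 (-0.49), that of ERO1B without BRDT-OE replicate 2 (-0.48), and that of EDEM2 with the length and GC trend removed (-0.49).

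Taking each role over the 6 comparisons, 6 members were called in none, 8 in 1, 11 in 2, 8 in 3 and 1, SEC61A1, in 4. Calls in either direction count here, and the 2 TE6 comparisons share their controls. SEC61A1 was called lower in both KYSE180 comparisons and higher in TE6 siTP63 and BRDT-OE. The same count was not made over all genes, whose called shares per comparison are given above. The members called in none were DNAJB11, DNAJC3, SYVN1, ERN1, SRP54 and SEC23B. ERN1 had low values (10.4 to 25.8 in TE6), and its -0.77 and -0.89 in TE6 siBRDT and siTP63 had standard errors of 0.39. Among the 11 tested genes with an ERSE or ERSE-II the median fold change was -0.26 in KYSE180 siBRDT, with 5 called lower, and -0.36 in the 21 searched genes without, with 6 called lower. The medians with and without an element were -0.31 and -0.19 in TE6 siBRDT, -0.05 and 0.09 in KYSE180 siTP63, -0.15 and 0.01 in TE6 siTP63, -0.37 and -0.01 in KYSE150 siTP63, and -0.02 and 0.08 in BRDT-OE. The sets were not tested against each other.

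Fold changes moved with transcript length in 3 comparisons, over all genes as well as over the members. Across genes, which are not independent replicates, Spearman's rho of log2 fold change on length was -0.48 over all genes and -0.59 over the 34 members in TE6 siBRDT, -0.30 and -0.43 in TE6 siTP63, and 0.36 and 0.56 in KYSE180 siTP63. In KYSE180 siBRDT it was -0.11 and 0.04, and in BRDT-OE 0.15 and 0.03. Genes with transcripts of 5000 bases or more had a median of -0.38 in TE6 siBRDT, and those under 1500 bases had 0.49. After that trend and one on GC content had been removed from each library, all 13 falls in KYSE180 siBRDT were still called, as were 6 of the 10 falls in TE6 siBRDT. In KYSE180 siTP63, 3 of the 5 rises and 4 of the 5 falls were called after removal, and in TE6 siTP63 4 of the 7 rises and 3 of the 6 falls. The part of length in these results was not tested further.

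**Figure D4:**
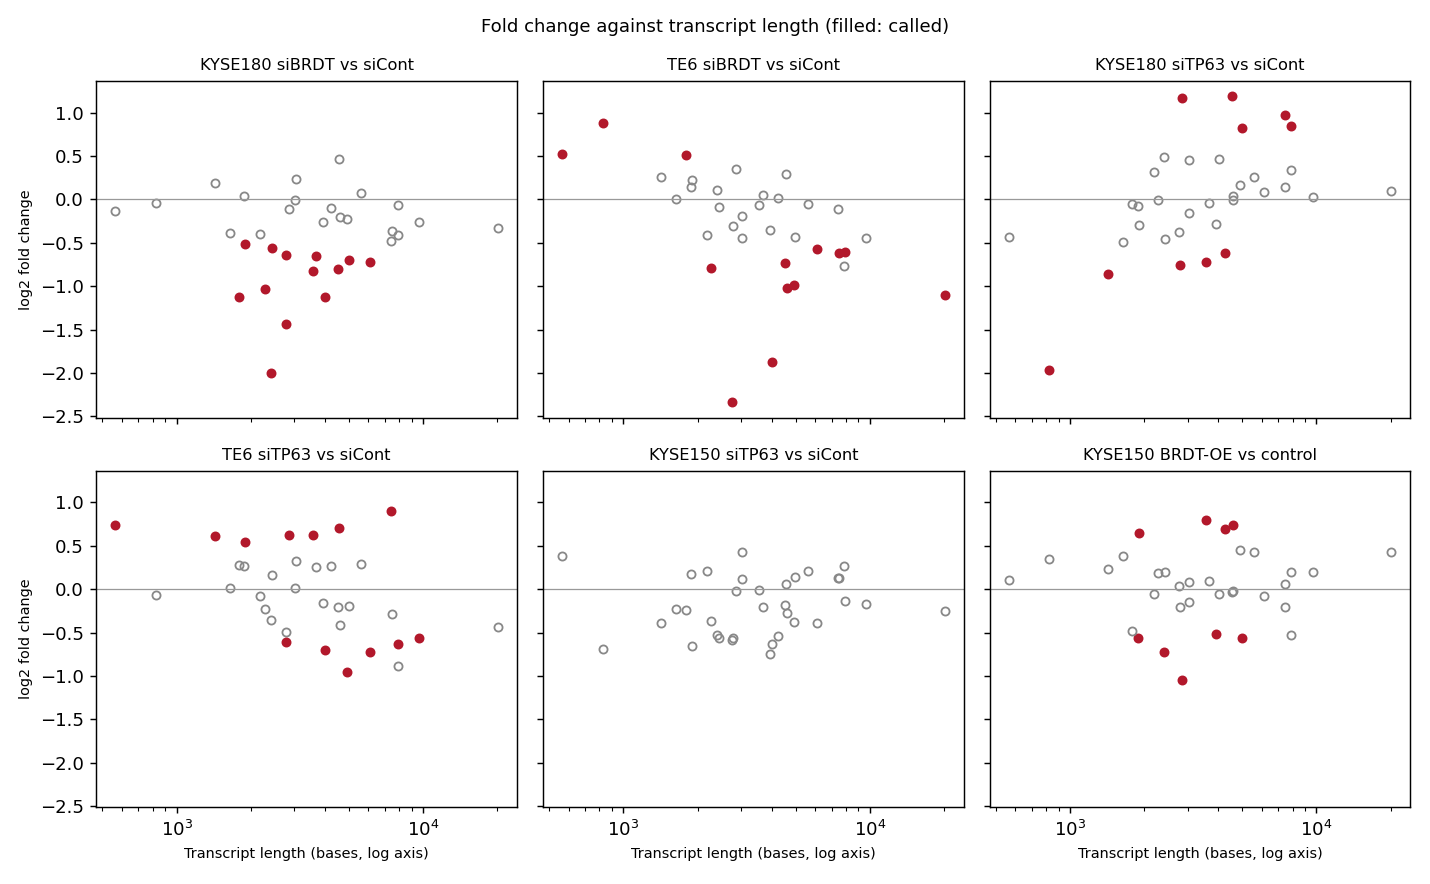
Log2 fold change (y axis) against transcript length in bases (x axis, log scale) for the 34 members in each of the 6 comparisons, with filled red points for called members. The points slope down in TE6 siBRDT and up in KYSE180 siTP63, and show little slope in KYSE180 siBRDT and BRDT-OE.

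A wider set of 111 ER genes outside the members gave 5 higher and 36 lower of 108 tested in KYSE180 siBRDT, where 14.5% and 15.8% of all genes were called. There 8 of 16 other lumenal chaperones and cochaperones fell, among them HSPA13 (-1.62), and CALU (-1.22), a calcium-binding ER protein. Other disulfide isomerases and oxidases were called lower in 5 of 12, and other ERAD and quality-control genes in 4 of 17. In TE6 siBRDT 14 rose and 29 fell of 109 (15.6% and 18.1% of all genes), with TXNDC5, a disulfide isomerase, at -2.50 ± 0.25. In TE6 siTP63 18 rose and 19 fell of 109 (18.3% and 20.6% of all genes). KYSE180 siTP63 gave 18 higher, among them EDEM3 (1.78), and 22 lower, among them PRDX4 (-1.29), an ER peroxidase, of 109 (23.6% and 25.7% of all genes). KYSE150 siTP63 gave 0 and 0 of 108, and BRDT-OE 5 and 6 of 108 (10.5% and 16% of all genes).

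That set also holds stress effectors of the PERK and ATF4 branch. CHAC1, a glutathione-degrading enzyme induced by ATF4, was 2.81 ± 0.17 in TE6 siBRDT, 2.63 ± 0.17 in TE6 siTP63 and 1.58 ± 0.18 in KYSE180 siTP63, all called, and -1.56 ± 0.12 in BRDT-OE. The TE6 values share their control libraries, and genes of the wider set are given under the main test only. ATF4 itself was 1.74 in TE6 siTP63 and 0.77 in KYSE180 siBRDT, and it was also called higher in TE6 siBRDT. The list of stress transducers and effectors went both ways, with 5 higher and 3 lower of 15 tested in TE6 siBRDT (15.6% and 18.1% of all genes). It gave 7 and 2 in TE6 siTP63 (18.3% and 20.6%), and 5 and 4 in KYSE180 siTP63 (23.6% and 25.7%). Its lowest fold changes were -1.06, -1.66 and -1.28 in that order. In BRDT-OE 6 of 15 tested stress transducers and effectors fell, where 16% of all genes did, and 0 rose. Among the 6, DDIT3, which encodes the transcription factor CHOP, changed by -2.08 ± 0.09 (adjusted p = 5.64e-07), ATF3 by -1.95 ± 0.07, BBC3 by -1.85 ± 0.13 and TRIB3 by -1.02 ± 0.06. In KYSE180 siBRDT this list was split, with 3 higher and 5 lower of 15 tested (14.5% and 15.8% of all genes). No tested gene of the list was above 0.77 there.

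Exons of several members overlap those of other genes in GENCODE release 44 on hg38, and the counting setting for strand is not given in the sources used here. Such overlaps touch HSP90B1 (TTC41P), CRELD2 (ALG12), CANX (CBY3), PDIA6 (ATP6V1C2), PDIA3 (ELL3), DNAJB11 (TBCCD1), SEC61A1 (RUVBL1), SYVN1 (MRPL49 and FAU) and SSR1 (CAGE1), whose values are uncertain to that extent.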

How the data were processed

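Per the labels and the study's methods, RNA libraries were made with the TruSeq RNA v2 kit. Reads were mapped to hg38 and counted per gene, and the submitters' processing notes name STAR 2.6.0, HTSeq 0.11.2 and DESeq2 1.24.0. What the authors deposited is a signal, that is, gene counts after division by library size factors, with 5 tables scaled separately. Reads were recovered as whole multiples of the smallest value, which gave 7582089 to 19372441 per library. Intervals from such totals cover counting error only, and a count of 0 allows up to 3 reads.

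Tests used limma 3.58.1 (R 4.3.3, lmFit and eBayes with trend = TRUE) on log2(value + 1) over all genes with a table mean of at least 10. Fold changes on this scale understate those of low genes. There was 1 fit per table, with all 3 TE6 groups in theirs. Members and gene lists were chosen with earlier results of these data known. Named in every comparison are HSPA5, HSP90B1, CALR, HERPUD1, XBP1 and DNAJB9, with the called members (beyond 12, the 6 largest rises and 6 largest falls), the 3 largest rises and falls in KYSE150 siTP63, the 6 largest differences between lines, and up to 3 called genes of the wider lists in each direction. Other members and wider genes named beside a count were chosen after their values were seen. Alternatives were a pseudocount of 0.1, no filter, no fold limit, equal upper quartiles, a replicate block, only 2 TE6 groups, the recovered reads in edgeR 4.0.16 and in DESeq2 1.42.0, and leaving out each library. Equal total reads, a crossed block in KYSE150 siTP63 and removal of a spline trend on transcript length and GC content (lengths for 23161 of 26485 symbols, 87.4%) were chosen after seeing the data. The fits were tested on simulated data. Same-numbered libraries did not deviate together in every pair of any comparison (correlations of -0.08 to 0.18, and -0.70 in KYSE150 siTP63, where the opposite numbers did), so the numbers were not used as a block in the main test. Plots were made in Python 3.11.15 (matplotlib 3.10.9).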

Additional observations from a re-analysis of the deposited data

Results flagged for a closer look

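Differences between KYSE180 and TE6 passed the limma contrast of their fold changes (KYSE180 minus TE6) in 19 members under each siRNA. Under siBRDT 8 were positive and 11 negative, where 22.5% and 19.4% of 12612 genes were. Under siTP63 10 were positive and 9 negative, where 26.2% and 28.8% of 12780 genes were. The 6 largest member differences of each siRNA are given here. Under siBRDT these were DNAJB9 (-2.11), XBP1 (-1.63), SDF2L1 (-0.92), PDIA4 (0.91), HYOU1 (0.81) and CANX (0.77). Under siTP63 these were SDF2L1 (-1.90), CRELD2 (-1.48), SEL1L (1.47), EIF2AK3 (1.40), SEC61A1 (-1.34) and SEC61B (-1.17). SDF2L1 appears under both siRNAs, and with the length and GC trend removed its siBRDT difference was -0.31 and no longer called, as was that of SEC61B under siTP63 (-0.21). No group had 4 or more libraries, so single libraries could not be tested against the rest of their group.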

How the results depend on the processing

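DESeq2, the smaller pseudocount, the unfiltered table, the fit of 2 TE6 groups and the replicate block changed no member count by more than 1.5 times and turned no direction. With the replicate block 13 members were lower in KYSE180 siBRDT, as without it. The cause of the changes below was not tested. With equal upper quartiles the counts were KYSE180 siBRDT 1 higher, TE6 siBRDT 5 lower, KYSE180 siTP63 9 higher and 3 lower, TE6 siTP63 2 lower, 2 higher in the siBRDT difference between lines and 3 in the TE6 difference between siRNAs. Over all genes this setting called 2308 of 13592 higher in KYSE180 siBRDT and 588 of 13368 lower in TE6 siBRDT. In KYSE180 siTP63 it called 4660 of 13933 higher and 2554 lower, and in TE6 siTP63 1604 of 13368 lower. Equal totals gave 1 higher in KYSE180 siBRDT, 1 higher in TE6 siBRDT, 19 higher and 1 lower in KYSE180 siTP63, and 19 and 4 in the siTP63 difference. Over all genes they called 2515 of 13588 higher in KYSE180 siBRDT and 1571 of 13329 higher in TE6 siBRDT. In KYSE180 siTP63 they called 6781 of 13969 higher and 1451 lower, and in the siTP63 difference 5893 genes positive and 1861 negative. Without the trend there were 1 higher in each siBRDT comparison, 6 lower in TE6 siBRDT, 3 higher in KYSE180 siTP63, 4 lower in KYSE150 siTP63 and 6 higher in the siTP63 difference. Over all genes 1755 of 12554 were then higher in KYSE180 siBRDT, and 1158 of 12343 higher and 1563 lower in TE6 siBRDT. In KYSE180 siTP63 2585 of 12798 were higher, and in KYSE150 siTP63 736 of 11376 were lower. Without a fold limit there were 2 higher and 22 lower in KYSE180 siBRDT, 9 lower in KYSE180 siTP63, 13 and 8 in BRDT-OE and 15 higher in the TE6 difference. Over all genes 3893 of 13589 were then higher and 4044 lower in KYSE180 siBRDT. In KYSE180 siTP63 4313 of 13924 were lower, and in BRDT-OE 3326 of 12765 were higher and 3195 lower. The crossed replicate block gave 9 lower in KYSE150 siTP63, where 1774 of 12335 genes were lower. All-gene counts of the other differences under these settings are not given.

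Leaving out single libraries gave 0 to 1 higher and 13 to 14 lower (KYSE180 siBRDT), 2 to 3 and 7 to 12 (TE6 siBRDT), 4 to 6 and 5 to 6 (KYSE180 siTP63), 6 to 7 and 5 to 7 (TE6 siTP63), 4 to 5 and 4 to 6 (BRDT-OE), and for the differences 7 to 11 and 9 to 12 (siBRDT), 6 to 13 and 8 to 9 (siTP63) and 5 to 9 higher (TE6). All-gene counts for these fits are not given.

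Directions turned in small values. CALR (-0.063) and SEC61B (-0.0011) in TE6 siBRDT did so without the trend. In KYSE180 siTP63 equal totals turned HSPA5 (0.24), CALR (0.23) and XBP1 (0.48), and XBP1 was also 0.17 (upper quartiles), 0.18 (trend removed) and 0.0015 (edgeR), and -0.10 to 0.0016 without single libraries. HERPUD1 in KYSE150 siTP63 was 0.086 in both rescalings, 0.0063 in edgeR and -0.15 to 0.11 without single libraries. DNAJB9 ranged from -0.26 to 0.47 in TE6 siBRDT and from -0.72 to 0.010 in TE6 siTP63.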

Other observations

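MANF, which failed the level rule through TE6 alone, had 1 to 7 reads in each of the 6 TE6 libraries (at most 0.634 RPM) and 59.3 to 140 RPM in the 20 libraries of the other lines. It lies at chr3:51385291-51389397 on hg38. The next gene downstream, RBM15B (chr3:51391285-51397908), had a median of 48.1 RPM in TE6 and 93.1 RPM elsewhere. DOCK3, the next gene upstream (chr3:50674927-51384198), had a median of 8.98 RPM in TE6 and 1.81 RPM elsewhere, and its highest level in the other lines was 3.06 RPM. These levels were chosen for display after their values were seen and were not tested.

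In the other lines, MANF values were 1823 and 2321 in KYSE180 siCont of the TP63 experiment and 915 and 836 in siTP63, 1033, 1047 and 934 in KYSE180 siCont of the BRDT experiment and 784, 624 and 631 in siBRDT, 2181 and 1476 in KYSE150 siCont and 878 and 1186 in siTP63, and 1084, 988 and 1267 in the KYSE150 vector control and 1040, 1058 and 1046 in BRDT-OE. The knockdowns in KYSE180 and KYSE150 lay below their controls in every library, and the BRDT-OE values lay within the range of the controls. These changes were not tested. Groups were likewise apart in 25 of the 34 members in each KYSE180 comparison and in 14 in KYSE150 siTP63. How many of all genes had groups apart was not counted, so these numbers have no background share. MANF has a transcript of 909 bases, and genes with transcripts under 1500 bases had a median of -0.64 in KYSE180 siTP63.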
